A study of Anser cygnoides with 11 samples.

Results

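Cytochrome P450 enzymes and the enzymes that conjugate their products were examined in kidney tissue of the swan goose (Anser cygnoides), in 5 goslings chosen for signs of visceral gout together with serum findings and in 6 healthy goslings. In visceral gout urate settles on the organs of the body cavity, and in birds the kidney carries most urate out of the body. Neither group is labelled with an agent, a genotype or an age in the sources used here, and each library is labelled as its own gosling. The labels also carry text that goes against kidneys of goslings, on water oxygen in tanks and on adipose tissue, and it was left aside. A row of the deposited table entered when its gene symbol began with the letters of a numbered P450, a glutathione S-transferase, a microsomal glutathione S-transferase, a UDP-glycosyltransferase, a sulfotransferase, a flavin monooxygenase or an epoxide hydrolase. A row named only by a LOC number, the identifier NCBI gives to a gene with no symbol, entered when its description named a cytochrome P450, a glutathione S-transferase or a UDP-glucuronosyltransferase. This gave 56 of the 19275 rows, 16 by symbol and 40 by description. The rows comprised 28 P450s, 12 glutathione S-transferases, 7 UDP-glycosyltransferases, 4 sulfotransferases and 4 flavin monooxygenases or epoxide hydrolases. The remaining row, FMOD, shares its first letters with the flavin monooxygenases but encodes fibromodulin, a matrix protein; it stayed below the level tested.

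Drug and hormone metabolism is usually described in phases. In phase I, P450s, haem proteins of the endoplasmic reticulum or of mitochondria, insert oxygen into fatty substances such as drugs, steroids, retinoids and arachidonic acid. Those of the endoplasmic reticulum take their electrons from P450 oxidoreductase. In phase II, transferases attach glutathione, glucuronic acid or sulfate, which makes the product soluble enough for transporters of kidney and liver to pass it into urine or bile. Liver holds most of this activity in vertebrates, and in mammalian kidney it lies chiefly in the proximal tubule.

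The values are FPKM, abundance values that allow for the length of a transcript and the size of a library, so levels can be set beside each other between genes. FPKM column totals ranged from 229465 to 399990 over the 11 libraries, and the table gives no read numbers, so depth is unknown. A row was tested where 5 or more libraries reached 1 FPKM, which left 12252 rows in all and 34 of the 56 enzyme rows. Of the 22 rows not tested, 17 lay under 1 FPKM in every library. Tubule transcripts were present, such as HNF4A (25.1 FPKM in gout and 26 in control) and PCK1 (172 and 216 FPKM). Of 12 tubule markers tested, 3 fell, as given below. At an unadjusted limma p under 0.05, 6 of the 12 were lower in gout, as were 24.3% of all tested rows. ALB, the albumin of liver, stood at 0.725 and 0.328 FPKM. Some other hepatocyte markers were higher, such as TF (39.35 FPKM in gout and 240 in control) and VTN (88.25 and 65.0 FPKM).

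Transcripts of these enzymes were mostly lower in gout kidney. Of the 34 tested rows, 11 fell, 1 rose and 22 did not pass, where passing means a limma adjusted p under 0.05 on the log2(FPKM + 1) scale. Over all tested rows 6.99% passed, 6.29% as falls and 0.694% as rises, so that 32.4% of the enzyme rows fell beside 6.29% of all rows. The rows that fell were 5 P450s, 4 glutathione S-transferases and 2 UDP-glucuronosyltransferases, and the row that rose was the retinoic acid hydroxylase 26B1. The log2 fold change of gout against control was below 0 in 31 of 34 enzyme rows and in 76.8% of all rows, and its median was -0.73 beside -0.29. Over all 56 rows, tested or not, 42 had a lower log2 mean in gout and the median difference was -0.26. That share is near the 76.8% of all tested rows below 0, so it sets nothing apart in the enzymes. The matching share and median over all 19275 rows were not taken. All 5 gout libraries lay below all 6 control libraries in 4 enzyme rows (4.55% of all tested rows did so) and above them in 0 (0.482% of all).

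The general shift of the table matters for these counts. Quantile normalization, which gives every library the same distribution of values, moved the median of all tested rows from -0.29 to 0.01 and that of the enzymes from -0.73 to -0.42, with 27 of 34 enzyme rows then below 0. It left 5 enzyme rows past the threshold (3.84% of all tested rows passed then, 2.0% as falls and 1.84% as rises): the 2G1-like P450, MGST1 and the 2 UDP-glucuronosyltransferases fell, and 26B1 rose. These 4 falls were also the ones that held with any single gosling left out. Of the rows that fell, the 2G1-like and the 4V2 row reached 1 FPKM in control libraries alone, the group where they are high, so their entry into the test already favoured a difference. The UDP-glucuronosyltransferase row LOC106034449 entered with 6 control and 1 gout libraries at 1 FPKM or more, and the 1A4-like row with 5 and 1. Control libraries alone would have sufficed for the entry of both. The 26B1 row entered with 4 gout and 1 control libraries at that level.

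**Figure D1:**
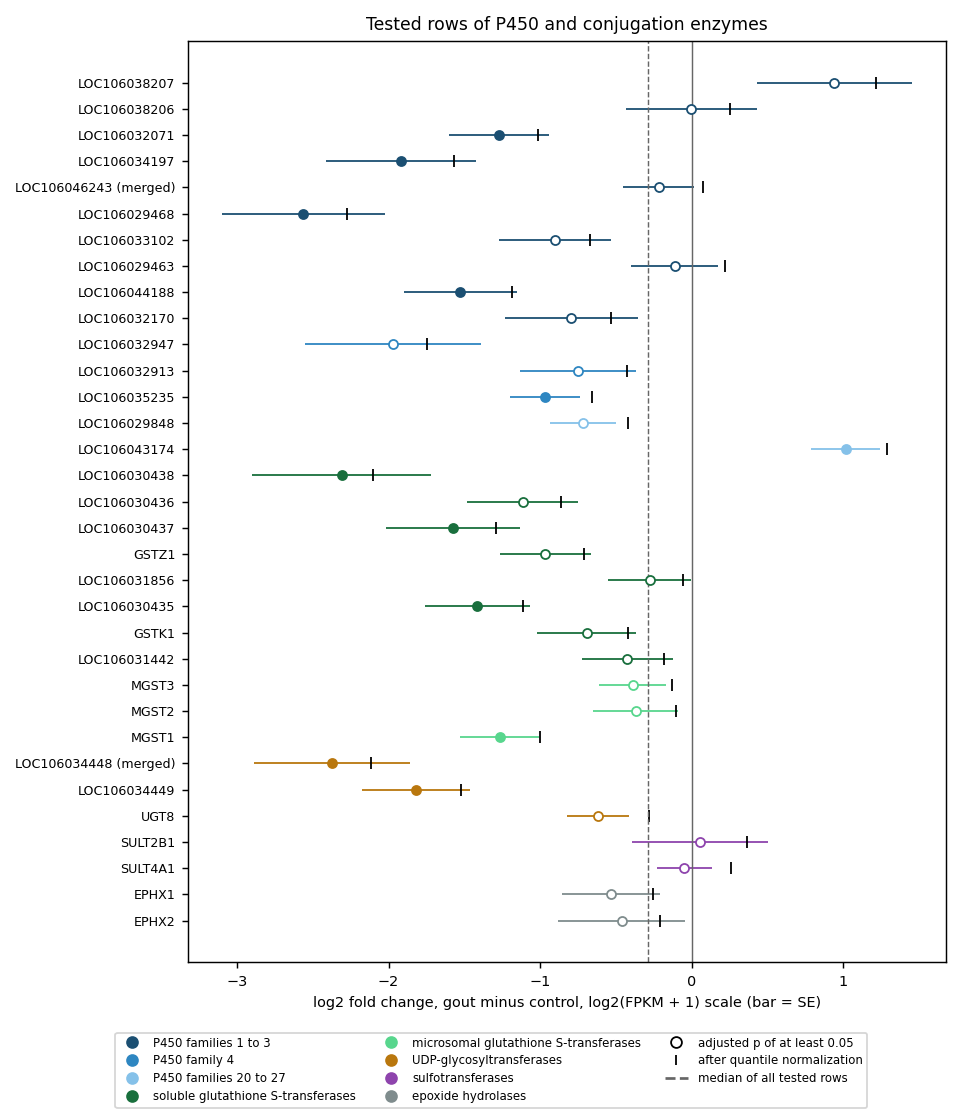
Log2 fold change of gout minus control on the log2(FPKM + 1) scale for the tested enzyme rows but 1, by family (horizontal axis, log2 units); circles are limma estimates, filled where the adjusted p was under 0.05, and bars are the standard error. Black ticks give the estimate after quantile normalization and the dashed line the median of all tested rows (-0.29); all but 3 circles lie left of 0, and the filled circle on the right is the 26B1 row.

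Among P450s of families 1 to 3, which act on drugs and other foreign compounds, steroids and fatty acids, 20 rows were found and 10 tested; 4 of these fell and 0 rose. The row LOC106029468, described as a partial 2G1-like P450 (an olfactory enzyme in rat and rabbit), gave 0.389, 0.456, 0.0566, 0.901 and 0.597 FPKM in gout replicates 1 to 5. In control kidneys it ran from 2.23 to 25.5 FPKM with a median of 6.92. Each control library exceeded each gout library. Among the controls, replicates 1 and 5 were high, at 24.4 and 25.5 FPKM, and the others lay between 2.23 and 9.58 FPKM. The log2 fold change was -2.56 (SE 0.54, limma adjusted p = 0.016), and no gout library reached 1 FPKM, so the row was tested on the strength of its control libraries.

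LOC106034197, a 2C16-like P450 of the drug and arachidonic acid metabolizing 2C group, had 0.429, 6.01, 3.03, 1.9 and 11.3 FPKM in the gout libraries and 7.18 to 23.7 FPKM (median 19.5) in control. Gout replicate 5 stood above control replicates 2 and 6, so the groups overlapped. The mean fell from 16.7 ± 7.27 FPKM in control kidneys to 4.53 ± 4.3 in gout (SD, n = 6 and 5), a log2 fold change of -1.92 with SE 0.49 (limma adjusted p = 0.0349). LOC106032071, described as 3A8-like, belongs to the 3A group, whose human members oxidize a large part of medicines; it had 4.96, 7.12, 3.13, 6.54 and 12.5 FPKM in gout and 9.93 to 28.4 FPKM (median 15.7) in control. Again gout replicate 5 alone reached into the control range, above replicates 2 and 4. The fall was from 17.7 ± 7.47 to 6.85 ± 3.51 FPKM (SD, n = 6 and 5; limma adjusted p = 0.0375). The other 3A row, the 3A9-like LOC106032170, was at 2.63 ± 3.04 FPKM in control and 0.713 ± 0.578 in gout and did not pass (limma adjusted p = 0.261).

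The avian 1A4 enzyme corresponds to mammalian CYP1A1, which dioxins and other ligands of the aryl hydrocarbon receptor AHR induce. The 1A4-like row LOC106044188 gave 0.222, 0.238, 0.613, 1.08 and 0.344 FPKM in gout, and 0.792 to 10.2 FPKM (median 2.81) in control. Control replicate 2 was the lowest control and lay below gout replicate 4, the highest gout library; control replicate 3 was the highest. The log2 fold change was -1.53 (SE 0.37, limma adjusted p = 0.0295). Of the gout libraries only replicate 4 reached 1 FPKM, so control libraries carried this row into the test. The 1B1 row LOC106029463, also a target of that receptor in mammals, was at 5.54 ± 2.25 FPKM in gout and 5.89 ± 1.76 in control, a difference within the spread of the goslings (limma adjusted p = 0.823).

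Of these 4 calls, that of the 2G1-like row held with any single gosling left out (adjusted p between 0.0105 and 0.042). The 3A8-like call was lost without any 1 of gout replicates 2, 3 and 4 or control replicates 1, 3, 5 and 6 (adjusted p up to 0.09), the 2C16-like call without gout replicates 2, 3 and 4 or control replicates 1, 3, 4 and 5 (up to 0.0867), and the 1A4-like call without gout replicates 2 and 3 or control replicates 1 and 5 (up to 0.075). After quantile normalization the adjusted p of these 3 rows was 0.0659, 0.0901 and 0.109.

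The most abundant P450s were not among those that fell. LOC106038207 and LOC106038206, adjacent genes in RefSeq's annotation of the Taihu goose assembly, are both described as 2K1-like, a P450 first known from trout. LOC106038207 had 38.4, 76.2, 187, 139 and 186 FPKM in gout and 24.9 to 171 FPKM (median 57.7) in control. Its mean was 125 ± 66.3 FPKM in gout and 68.8 ± 53.6 in control, with gout replicate 1 low among the gout libraries and control replicate 6 high among the controls; the row did not pass (log2 fold change 0.94, SE 0.51, limma adjusted p = 0.252). LOC106038206 was at 64.7 ± 37.0 and 67.3 ± 33.8 FPKM (limma adjusted p = 0.996).

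As a share of all P450 FPKM, chosen for description after the values were seen, the 2K1-like pair took 69.6, 73.2, 86.7, 71.1 and 76.6% in the gout libraries and 31.7 to 69.8% (median 42.8%) in control. Control replicate 6 was the control library that reached the gout range. Near-identical neighbours can exchange reads in mapping, so the split between these 2 rows is uncertain; their ratio, LOC106038207 to LOC106038206, was 2.15 ± 1.21 in gout and 1.03 ± 0.469 in control (SD, n = 5 and 6). The sum over all 28 P450 rows was 249 ± 111 FPKM in gout and 286 ± 117 in control.

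The other tested rows of these families had lower means in gout without passing; after quantile normalization the log2 fold changes of the 1B1 and 2D20 rows lay above 0, at 0.22 and 0.08. LOC106033102, described as 2J2-like after the arachidonic acid epoxygenase of human heart, had 5.61, 1.36, 1.31, 8.64 and 5.53 FPKM in gout and 5.5 to 11.7 FPKM (median 7.52) in control. Gout replicates 2 and 3 lay below every control library and the other gout libraries within the control range (limma adjusted p = 0.138). The row LOC106046243, described as 2D20 and merged in the table with NDUFA6, a subunit of mitochondrial complex I, was at 8.27 ± 3.38 and 9.38 ± 1.43 FPKM, and its reads cannot be assigned to either gene. The 10 untested rows, described as 2C16-like, 2H2-like, 2J, 2K4-like and 2W1-like enzymes, did not exceed 1.37 FPKM in any library. That value belonged to a 2W1-like row in gout replicate 2.

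P450s of family 4 hydroxylate the end of fatty acid chains, arachidonic acid included. All 3 rows were tested, 1 fell and the other two were lower by mean. The 4V2 row LOC106035235, known in humans for a fatty acid hydroxylase lost in a crystalline retinal disease, had 0.579, 0.529, 0.356, 0.331 and 0.906 FPKM in gout. Control libraries ran from 1.05 to 3.61 FPKM (median 1.97), all above the gout libraries and with control replicates 3 and 5 highest. The log2 fold change was -0.97 (SE 0.23, limma adjusted p = 0.0269; 0.0792 after quantile normalization). No gout library reached 1 FPKM here either, so the row entered the test through its control libraries alone.

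The 4B1-like LOC106032947 was the most abundant of family 4, with 3.88, 5.5, 9.05, 37.0 and 29.8 FPKM in gout and 16.3 to 135 FPKM (median 49.4) in control. Gout replicates 1, 2 and 3 lay below all controls, gout replicates 4 and 5 within their range. Its log2 fold change was -1.97 (SE 0.58), but the limma adjusted p was 0.0557. The log2(FPKM + 1) scale shrinks the changes of low rows such as 4V2, so the estimates of the rows cannot be ranked by size. The ratio of control mean to gout mean was 3.50 for the 4B1-like row and 3.96 for the 4V2 row. The row passed without gout replicate 4, without gout replicate 5 or without control replicate 2 (lowest adjusted p 0.0327), and the 4V2 call was lost without gout replicates 2, 3 and 4 or control replicates 5 and 6 (up to 0.0674). The neighbouring 4A6-like LOC106032913, named after an arachidonic acid hydroxylase of rabbit, was at 2.06 ± 1.82 FPKM in gout and 3.95 ± 2.73 in control (limma adjusted p = 0.224).

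Families 20 to 27 include the P450s that break down retinoic acid. The 26B1 row LOC106043174, whose mammalian counterpart clears retinoic acid in embryonic and adult tissues, was the enzyme row that rose. It had 2.34, 1.56, 0.938, 3.35 and 3.32 FPKM in gout and 0.328 to 1.27 FPKM (median 0.494) in control. Control replicate 2, at 1.27 FPKM, stood above gout replicate 3; all other control libraries lay below every gout library. Mean levels were 0.586 ± 0.346 FPKM in control and 2.3 ± 1.07 in gout (SD, n = 6 and 5), with a log2 fold change of 1.02 (SE 0.23; limma adjusted p = 0.0211). After quantile normalization the log2 fold change was 1.29 (limma adjusted p = 0.00903), a step of the size of the general shift, and the call was lost without gout replicate 4 or control replicate 5 (adjusted p up to 0.0552). The 26A1 row LOC106041199 stayed between 0 and 0.626 FPKM and was not tested.

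LOC106029848, the 20A1 row, a conserved P450 of unknown substrate, had 4.23, 2.37, 1.68, 3.31 and 4.07 FPKM in gout and 4.60 to 6.80 FPKM (median 5.60) in control. Every control library lay above every gout library, but the row did not pass (log2 fold change -0.72, SE 0.22, limma adjusted p = 0.0608; it passed without gout replicate 1 or gout replicate 5, lowest adjusted p 0.0368). The 2 rows described as 27C1, a retinol desaturase in humans and zebrafish, did not exceed 0.271 FPKM.

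The P450s of vitamin D and cholesterol, which carry descriptions without the words cytochrome P450, were looked up beside these. The 24-hydroxylase row LOC106041795, which inactivates vitamin D in kidney, was at 11.1 ± 12.9 FPKM in gout and 9.95 ± 4.19 in control (limma adjusted p = 0.732). Gout replicate 5, at 33.8 FPKM, raised the gout mean. The medians were 5.86 FPKM in gout and 8.56 in control, and the log2 fold change was -0.28. A further row of that description, LOC106041807, was at 0.782 ± 0.718 FPKM in gout and 0.4035 ± 0.156 in control, below the level tested. The sterol 26-hydroxylase row LOC106039314, the enzyme that starts side-chain oxidation of cholesterol, was at 17.8 ± 9.85 and 12.8 ± 2.68 FPKM (limma adjusted p = 0.526), and the vitamin D 25-hydroxylase row LOC106033854 at 0.461 ± 0.211 and 0.712 ± 0.256 FPKM, below the level tested. CYP27B1 and CYP1A5 were not analysed here.

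The 3 epoxide hydrolase rows among the 56 were not called in either direction. EPHX1, the microsomal hydrolase of reactive epoxides, was at 8.65 ± 4.24 FPKM in gout and 12.9 ± 4.85 in control, and EPHX2, which opens epoxides of fatty acids, at 7.34 ± 5.14 and 10.3 ± 6.16 FPKM (limma adjusted p = 0.299 and 0.494). EPHX4 did not exceed 0.488 FPKM and was not tested.

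**Figure D2:**
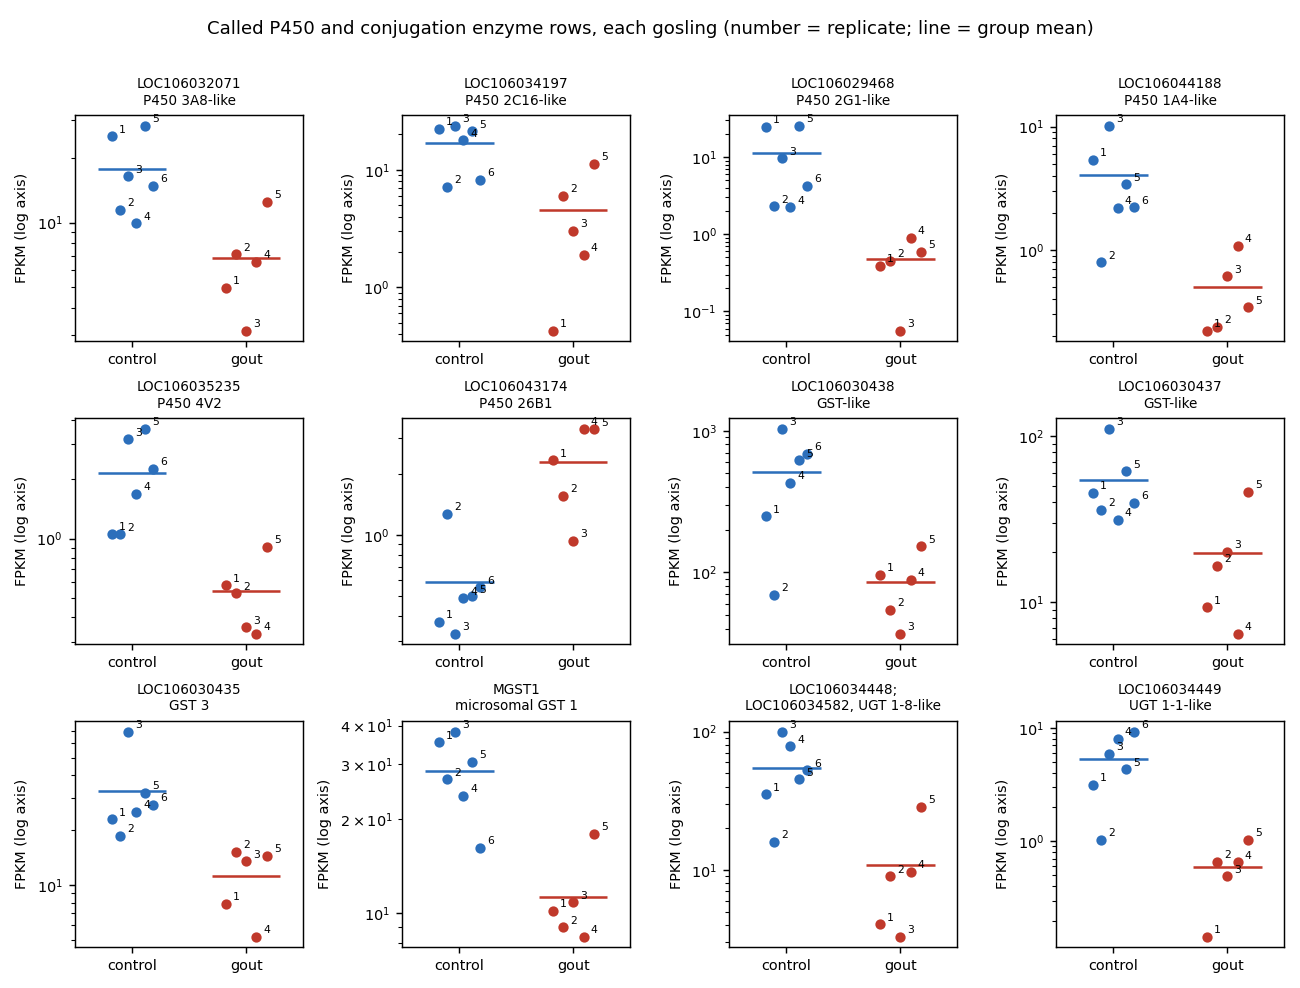
FPKM (vertical axis, logarithmic) of the 12 enzyme rows with an adjusted p under 0.05, each point a gosling with its replicate number and each line a group mean (control n = 6, gout n = 5). In the 2G1-like, 4V2 and glutathione S-transferase 3 panels every control point lies above every gout point, and in the other 9 panels the overlap involves gout replicate 5, control replicate 2 or both.

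The soluble glutathione S-transferases, which couple glutathione to electrophiles, held the most abundant row of all 56. All 8 rows were tested; 3 fell, 0 rose, and all 8 were lower by mean, also after quantile normalization. LOC106030435, LOC106030436, LOC106030438 and LOC106030437 follow one another in this order in the same annotation with no gene between them. Summed, these 4 rows gave 170 ± 76.3 FPKM in gout and 724 ± 443 in control (SD, n = 5 and 6), or 69.8% and 83.9% of all soluble glutathione S-transferase FPKM. Reads of near-identical copies may be split between such rows, so each single row is uncertain to that extent.

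LOC106030438 had 96.7, 54.7, 37.1, 89.1 and 153 FPKM in gout and 69.3, 249, 429, 617.9, 684 and 1035 FPKM in control, in rising order. The lowest control, replicate 2, lay within the gout range, and every other control library lay above every gout library. The mean fell from 514 ± 343 to 86.1 ± 44.6 FPKM (SD, n = 6 and 5), with a log2 fold change of -2.31 (SE 0.59; limma adjusted p = 0.0347). This row made up 65.7% ± 17.8 of the 4 rows' sum in control and 49.2% ± 9.35 in gout, so its part of the sum was lower in gout by mean, within overlapping ranges.

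LOC106030437 gave 9.31, 16.5, 20.02, 6.46 and 46.2 FPKM in gout and 31.2 to 111 FPKM (median 42.5) in control. Gout replicate 5 exceeded 4 of the 6 controls and the other 4 gout libraries lay below all of them (log2 fold change -1.57, SE 0.44, limma adjusted p = 0.0476). LOC106030435, described as glutathione S-transferase 3, had 7.89, 15.2, 13.5, 5.21 and 14.5 FPKM in gout and 18.7 to 69.8 FPKM (median 26.4) in control. Here the groups did not overlap, and control replicate 3 was far above the other controls (log2 fold change -1.42, SE 0.35, limma adjusted p = 0.0298). LOC106030436 had 69.7, 37.7, 31.3, 45.0 and 81.9 FPKM in gout and 73.7 to 273 FPKM (median 91.9) in control. Gout replicate 5 alone reached the control range, and the row did not pass (log2 fold change -1.11, SE 0.37, limma adjusted p = 0.0763).

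The LOC106030438 call was lost without any 1 of gout replicates 2, 3 and 4 or control replicates 1, 3, 4, 5 and 6 (adjusted p up to 0.0868), the LOC106030437 call without any 1 gosling but gout replicate 5 and control replicate 4 (up to 0.115), and the LOC106030435 call without gout replicate 4 or control replicates 5 and 6 (up to 0.0729). Without gout replicate 5, LOC106030436 passed as well (limma adjusted p = 0.0438). After quantile normalization the 3 called rows had adjusted p values of 0.0701, 0.118 and 0.108.

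**Figure D3:**
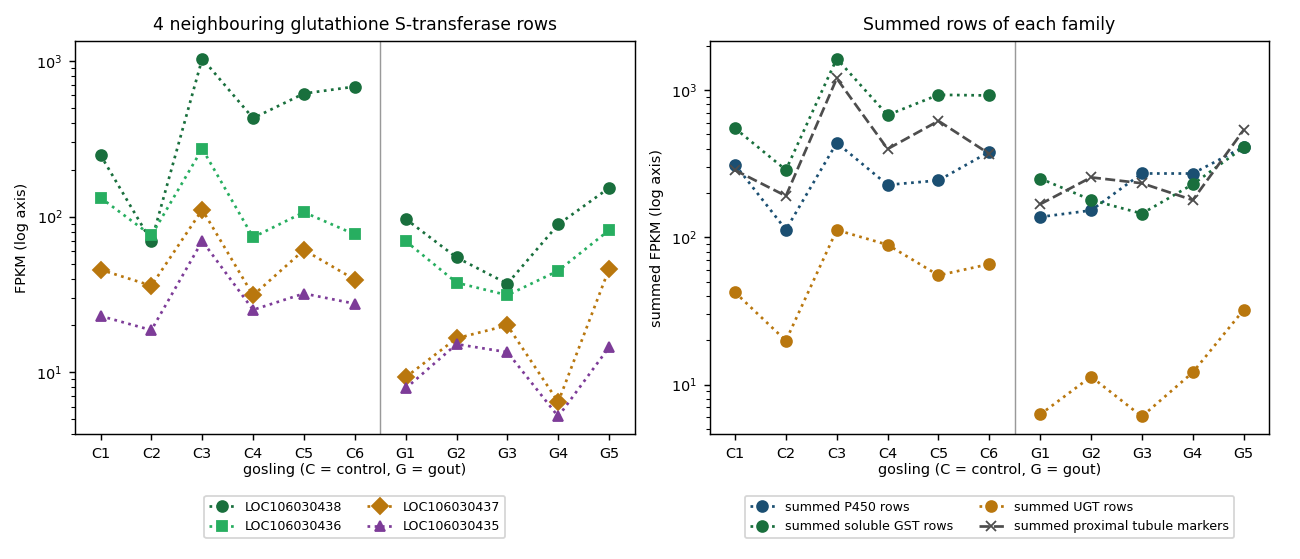
Left, FPKM (logarithmic axis) of the 4 neighbouring glutathione S-transferase rows in each gosling; right, FPKM summed over the P450, soluble glutathione S-transferase and UDP-glycosyltransferase rows and over the proximal tubule markers, on a logarithmic axis. The dotted and dashed lines join goslings only to guide the eye; control replicate 3 is the highest control in all 4 rows and all 4 sums, control replicate 2 the lowest control in all 4 sums, and gout replicate 5 the highest gout library in all 4 sums.

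Soluble transferases outside that neighbourhood differed less. GSTZ1, the maleylacetoacetate isomerase of tyrosine breakdown, had 24.9, 18.3, 10.8, 17.4 and 29.2 FPKM in gout and 26.2 to 67.8 FPKM (median 33.6) in control. Gout replicate 5 alone stood inside the control range (log2 fold change -0.96, SE 0.30, limma adjusted p = 0.0653; 0.0374 without gout replicate 5). GSTK1, an enzyme of mitochondria and peroxisomes, gave 9.76, 8.79, 7.602, 8.07 and 24.4 FPKM in gout and 8.57 to 27.5 FPKM (median 18.5) in control. Gout replicate 5 was exceeded by control replicate 3 alone, and control replicate 2 lay among the other gout libraries (limma adjusted p = 0.191; 0.0406 without gout replicate 5). The omega-1-like LOC106031856 and theta-1-like LOC106031442 were at 28.4 ± 11.7 and 11.97 ± 5.33 FPKM in gout and 33.3 ± 7.51 and 15.9 ± 4.87 FPKM in control, without passing.

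Microsomal glutathione S-transferases are membrane proteins of a separate family. Of 3 rows tested, MGST1, the detoxifying member of the endoplasmic reticulum and outer mitochondrial membrane, fell. It had 10.2, 8.98, 10.8, 8.38 and 18.0 FPKM in gout and 16.2 to 38.3 FPKM (median 28.8) in control. The highest gout library, replicate 5, passed only the lowest control, replicate 6. Its mean dropped from 28.5 ± 8.04 to 11.3 ± 3.88 FPKM (SD, n = 6 and 5), a log2 fold change of -1.27 (SE 0.26; limma adjusted p = 0.015), and the adjusted p stayed between 0.00846 and 0.0441 with single goslings left out and was 0.0337 after quantile normalization.

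MGST3, which has glutathione peroxidase activity, was the most abundant of this family, with 79.4, 74.6, 74.6, 108 and 134 FPKM in gout and 89.9 to 133 FPKM (median 125) in control. Gout replicates 1, 2 and 3 lay below all controls, replicate 4 between control replicate 2 and the rest, and replicate 5 above all (limma adjusted p = 0.271). MGST2, which can form leukotriene C4, was at 33.8 ± 13.6 FPKM in gout and 41.3 ± 6.47 in control (limma adjusted p = 0.404). A further row described as microsomal glutathione S-transferase 2, LOC106040967, did not exceed 0.449 FPKM.

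UDP-glucuronosyltransferases attach glucuronic acid to bilirubin, steroids and drugs, and the 2 tested rows of the UGT1 group both fell. The merged row LOC106034448;LOC106034582, described as 1-8-like, had 4.05, 8.99, 3.30, 9.66 and 28.5 FPKM in gout and 15.96 to 100.2 FPKM (median 49.0) in control. Gout replicate 5 stood above control replicate 2, and the other libraries kept apart by group. Mean FPKM was 54.6 ± 30.3 in control and 10.9 ± 10.3 in gout (SD, n = 6 and 5), and the log2 fold change was -2.37 (SE 0.51; limma adjusted p = 0.0183).

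LOC106034449, described as 1-1-like after the bilirubin transferase, had the smallest p of all 34 rows. It gave 0.145, 0.655, 0.493, 0.653 and 1.03 FPKM in gout, and 1.02 to 9.26 FPKM (median 5.12) in control. The groups met at gout replicate 5 and control replicate 2 alone. Of the gout libraries only replicate 5 reached 1 FPKM, so control libraries carried this row into the test. The mean was 5.28 ± 3.07 FPKM in control and 0.595 ± 0.320 in gout (SD, n = 6 and 5), with a log2 fold change of -1.82 (SE 0.36; limma adjusted p = 0.0125). With single goslings left out the adjusted p of the 2 rows reached at most 0.047 and 0.0323, and after quantile normalization it was 0.0366 and 0.047. In mammals UGT1 forms share exons of a common locus, and how reads were split between these rows is not known.

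UGT8, which builds galactosylceramide for myelin and is no detoxifying enzyme, had 1.89, 1.18, 2.09, 1.63 and 2.15 FPKM in gout and 1.79 to 4.37 FPKM (median 3.66) in control. Control replicate 4 lay among the gout libraries and the other 5 controls above them (limma adjusted p = 0.079; 0.0418 without control replicate 4). The other 4 rows of the family, 3 of them 1-1-like and the fourth UGT2B17, which conjugates androgens in humans, did not exceed 1.11 FPKM and were not tested. The FPKM sum of all 7 rows was 13.6 ± 10.8 in gout and 64.1 ± 33.0 in control.

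The 4 sulfotransferase rows among the 56 were low and not called. SULT2B1, which sulfates cholesterol and related steroids, is listed in 2 rows. The tested one had 0.421, 5.41, 0.832, 0.495 and 4.51 FPKM in gout and 0.469 to 3.52 FPKM (median 1.58) in control. Gout replicates 2 and 5 stood above all controls and gout replicate 1 below them (limma adjusted p = 0.945). The second row showed the same gout replicates high, at 3.29 and 5.60 FPKM, but control replicate 3 was higher at 5.95 FPKM. SULT4A1, a brain form with no firmly known substrate, was at 1.01 ± 0.381 FPKM in gout and 1.09 ± 0.415 in control, and SULT6B1 did not exceed 0.105 FPKM.

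The libraries that were high or low in one enzyme were often so in others. Among the 34 tested rows, control replicate 3 was the highest control in 22 and control replicate 2 the lowest in 18. Gout replicate 5 was the highest gout library in 21 and gout replicate 3 the lowest in 15. In gout the FPKM column total was likewise highest in replicate 5 (399990) and lowest in replicate 3 (229465). In control the total was lowest in replicate 3 (306484). How often each library was highest or lowest over all tested rows was not counted. Summed FPKM over all 56 rows was 627, 555, 658, 734 and 1237 in gout replicates 1 to 5, and 676 to 2645 in control, with replicate 2 lowest and replicate 3 highest. In bulk tissue fewer cells of a type and less RNA per cell cannot be told apart.

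Proximal tubule markers had their extremes in some of the same libraries as these sums, while the order of the others differed. Of 12 markers tested, 3 fell (SLC6A19, SLC22A7 and GATM) and 0 rose. Their summed level was 168 to 534 FPKM in gout, highest in replicate 5, and 191 to 1198 FPKM in control, lowest in replicate 2 and highest in replicate 3. PCK1 alone gave 347 FPKM of this sum in gout replicate 5 and 571.5 FPKM in control replicate 3, and it did not pass (limma adjusted p = 0.89). No marker of any list in the table was at 0 in all libraries. GATM and the lymphocyte marker CD79B reached 1 FPKM in control libraries alone, so their entry into the test already favoured a difference. Macrophage markers fell in 5 of 6 tested (summed 142 to 1466 FPKM in gout, 989 to 4889 in control), lymphocyte markers in 9 of 10 (21.5 to 192 and 148 to 633 FPKM) and distal tubule markers in 3 of 7 (63.0 to 89.1 and 104 to 180 FPKM). Hepatocyte markers passed in 0 of 8 tested (111 to 247 FPKM in gout, 174 to 896 in control), endothelial markers in 0 of 8 and adrenal markers in 0 of 2; at an unadjusted limma p under 0.05 these were 1, 4 and 0, all lower in gout, as were 24.3% of all tested rows. Beside these calls, 6.29% of all tested rows were called lower. After quantile normalization 3 proximal tubule, 3 macrophage, 7 lymphocyte and 2 distal tubule markers fell, beside 2.0% of all tested rows. Single genes made up much of some sums. CD74 gave 1269 FPKM of the highest macrophage sum in gout and 4322 FPKM of that in control. TF gave 783 FPKM of the highest hepatocyte sum in control. The part of these cell types in the enzyme differences was not tested.

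Genes that serve the same pathways without being P450s or conjugating enzymes of these families were taken from lists. Listed genes not found by symbol were left out, so none of these lists is covered in full. Of 105 in the table, 92 were tested, 12 fell and 0 rose, beside 6.29% and 0.694% of all tested rows. After quantile normalization 4 of the 92 fell and 0 rose, beside 2.0% and 1.84% of all tested rows. Of 23 regulators of these enzymes listed, 15 were found by symbol and 12 tested. Limma called 0 of these 12 (2 lower at an unadjusted p under 0.05). AHR was at 4.42 ± 2.02 and 6.67 ± 2.33 FPKM and NFE2L2, the factor of the oxidant response, at 15 ± 8.8 and 18.7 ± 8.01 FPKM. Of 13 redox partners listed, 4 were found by symbol and tested, and limma called 0 (1 at an unadjusted p under 0.05). POR, the oxidoreductase that feeds electrons to microsomal P450s, was at 14.6 ± 8.87 FPKM in gout and 13.9 ± 3.70 in control. PGRMC2, a haem chaperone with the smallest p there, was at 11.8 ± 3.54 and 17.4 ± 2.22 FPKM (limma adjusted p = 0.119).

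In the haem list 1 of 9 fell, FECH, the enzyme that inserts iron to form haem (3.84 ± 1.35 to 1.48 ± 1.25 FPKM, limma adjusted p = 0.0493). ALAS1, the first enzyme of haem synthesis, did not pass. Of the glutathione supply 1 of 15 fell, ANPEP, an aminopeptidase of the brush border that takes part in glutathione breakdown (69.0 ± 34.2 to 23.9 ± 10.5 FPKM, limma adjusted p = 0.0346), while GCLC and GCLM, the subunits of the rate-limiting ligase, did not. In the supply of glucuronate and sulfate donors 2 of 13 fell. These were BPNT1, which clears the by-product of sulfation, and ARSB, a lysosomal sulfatase that removes sulfate and supplies no donor (limma adjusted p = 0.0439 and 0.0254).

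Other phase I enzymes fell in 3 of 21. ADH5, the glutathione-dependent formaldehyde dehydrogenase, went from 89.0 ± 22.9 to 38.8 ± 15.8 FPKM (limma adjusted p = 0.0183; 0.0244 after quantile normalization), ALDH1A1, which makes retinoic acid from retinal, from 90.7 ± 64.6 to 17.7 ± 15.2 FPKM (0.0417), and ALDH8A1, an aldehyde dehydrogenase of the kynurenine pathway, from 7.72 ± 3.41 to 2.86 ± 1.63 FPKM (0.0476). Other phase II enzymes fell in 3 of 6. Among them HNMT, which methylates histamine, went from 5.75 ± 1.78 to 2.28 ± 0.767 FPKM, and AS3MT, which methylates arsenic, from 27.5 ± 6.65 to 12.4 ± 4.65 FPKM (limma adjusted p = 0.0222 and 0.026).

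Of 13 transporters of organic ions and conjugates 2 fell, both uptake carriers of the tubule. SLC22A7, an organic anion transporter, went from 46.0 ± 21.1 to 8.50 ± 5.42 FPKM with no overlap of the groups (limma adjusted p = 0.0051), and SLC22A2, an organic cation transporter, from 15.3 ± 9.11 to 3.49 ± 3.90 FPKM (0.0323). ABCC2, an efflux pump for conjugates, was at 24.4 ± 35.5 FPKM in gout and 15.5 ± 8.20 in control. Of the 12 calls in these lists, that of SLC22A7 held with any single gosling left out (adjusted p up to 0.0156) and that of ADH5 with any but gout replicate 2 (0.0521). The other 10 were each lost without 3 to 9 of the goslings, with adjusted p up to 0.117.

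The genes whose log2 values ran most nearly parallel to the 1-1-like LOC106034449 over the 11 libraries, by Pearson's r among rows with a symbol, were OLFM2, a secreted olfactomedin (0.96), LYPLAL1, a lysophospholipase-like protein (0.95), and GAMT, which makes creatine (0.93). These coefficients take in the difference between the groups and carry no test. GAMT was at 28.8 ± 7.004 FPKM in gout and 86.1 ± 41.8 in control, and LYPLAL1 at 2.33 ± 0.670 and 9.67 ± 3.78 FPKM. OLFM2 was low, at 0.338 ± 0.132 FPKM in gout and 1.27 ± 0.406 in control. It reached 1 FPKM in control libraries alone.

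**Figure D4:**
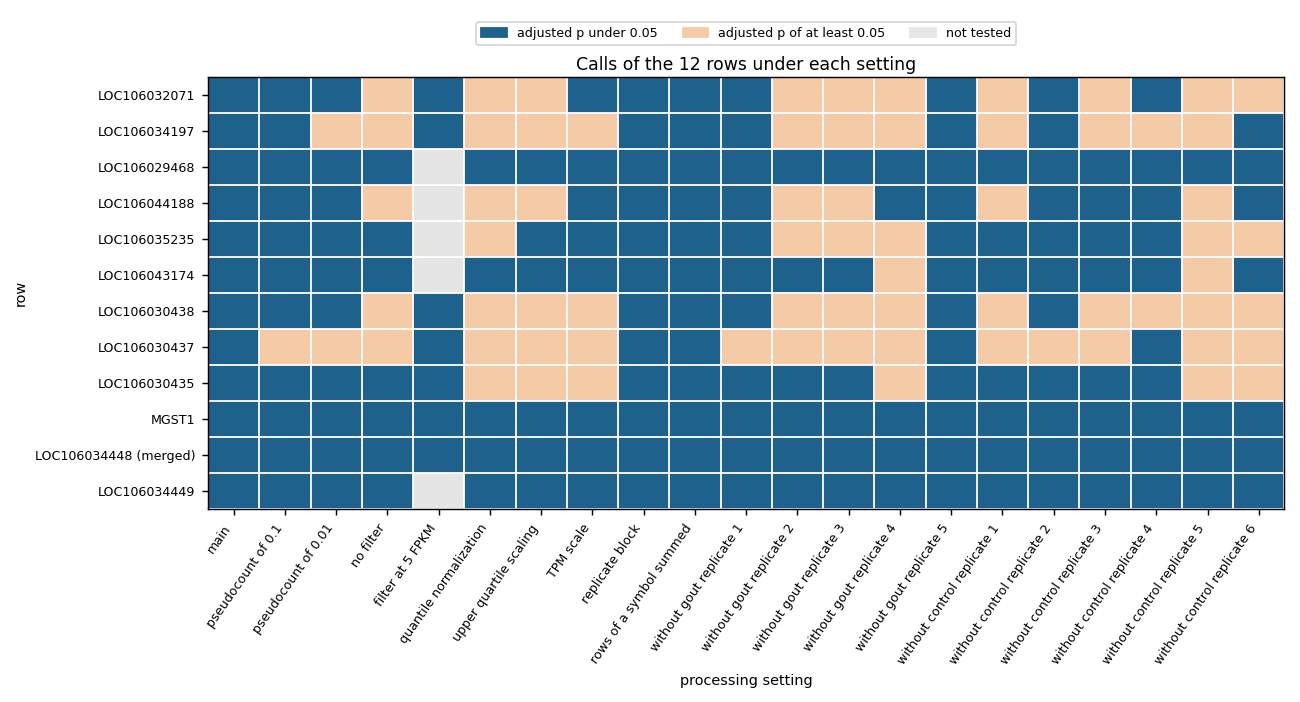
Calls of the 12 enzyme rows (vertical axis) under each processing setting and with each gosling left out (horizontal axis); dark cells mark a limma adjusted p under 0.05, pale cells one of at least 0.05 and grey cells rows below that setting's filter. The MGST1 row and the row of LOC106034448 stay dark throughout, those of LOC106029468 and LOC106034449 are dark wherever they were tested, and the LOC106030437 row is pale under most settings.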

How the data were processed

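Kidney RNA of 5 gout and 6 control goslings was sequenced as polyadenylated, paired-end libraries, per the labels' protocols. The FPKM values were made by the authors with HISAT and StringTie, per the submitters' processing notes; versions, strand use and genome build are not given in the sources used here. FPKM is relative, so the values of all rows depend on the most abundant ones.

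Each column was matched to a gosling by its title. Values were analysed as log2(FPKM + 1) with limma 3.58.1 in R 4.3.3 (linear model on group, empirical Bayes with trend, two-sided), with Benjamini-Hochberg adjustment over the 12252 rows holding 1 FPKM or more in 5 or more libraries; the steps were tested on simulated data. The p-values set the difference between the groups against the spread between goslings, with each row's variance drawn toward that of rows of like level. Age, sex and batch of the goslings were not analysed. Python 3.11.15 (pandas 2.3.3, matplotlib 3.10.9) served for tables and figures.

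Enzymes and lists were chosen with earlier results of these data known. The text gives values for every called enzyme row, the most abundant row of each role, the 8 uncalled rows with the smallest p and P450s of vitamin D and drug metabolism, and, for each list of related genes, up to 4 called genes or the one with the smallest p; other genes were added after their values were seen. Values of 3 genes under these rules are not reported here, though the counts take them in. A RefSeq entry was found for 47 of the 56 rows; it gave the gene order but no coordinates, since the builds may differ. Alternatives were quantile normalization, the TPM scale, upper quartile scaling, pseudocounts of 0.1 and 0.01, no filter or one at 5 FPKM, summed rows of a symbol, the label number as a block, an exact permutation test over the 462 splits of the goslings, and each gosling left out.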

Additional observations from a re-analysis of the deposited data

Results flagged for a closer look

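Gout and control values of each of the 25 enzyme rows named by rule made 50 groups. In each, on the log2(FPKM + 1) scale, the highest or lowest library was set against the nearest other one. By Dixon's criterion 3 groups held a library that stood apart on that scale. Chance alone flags about 1 in 20 such groups. The values below are FPKM. In the 26B1 row LOC106043174, control replicate 2 had 1.27 FPKM, and the next control library 0.554. In GSTK1, gout replicate 5 had 24.4 FPKM, and the next gout library 9.76. In MGST3, control replicate 2 was low at 89.9 FPKM, with the next control library at 122.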

How the results depend on the processing

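The 12 calls among 34 tested enzyme rows came to 7 of 56 with no filter (6 falls). With a filter at 5 FPKM they came to 7 of 23 (7 falls). Of the 12 called rows, 7 were still tested at 5 FPKM, and all 7 stayed called. Of the 34 rows, 5 passed after quantile normalization (4 falls), 6 after upper quartile scaling (5 falls) and 8 on the TPM scale (7 falls). Over all rows 450 of 7083 passed with the stricter filter and 717 of 19275 with no filter. Quantile normalization left 471, upper quartile scaling 522 and the TPM scale 712 of 12252, beside 856. Calls in the lists of related genes were 5 of 105 with no filter, beside 12 of 92. They were 4 after quantile normalization, 4 after upper quartile scaling and 6 on the TPM scale. With no filter, when all 56 rows enter, the enzymes' median was -0.26, and the median over all rows was not taken there. With single goslings left out, enzyme calls ranged from 4 (4 falls, without control replicate 5) to 17 (16 falls, without gout replicate 5), calls over all rows from 316 to 1466, calls in the lists from 2 (without gout replicate 2) to 25, and the enzymes' median from -0.88 to -0.56. None of the 12 called enzyme rows changed direction under any alternative.

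The log2 fold change of SULT2B1, 0.06, turned to -0.038 and -0.064 with pseudocounts of 0.1 and 0.01 and lay between -0.26 and 0.28 with single goslings left out; that of the 24-hydroxylase row LOC106041795 lay between -0.78 (without gout replicate 5) and 0.046 (without gout replicate 3). The causes were not tested.

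The deviations of same-numbered goslings from their group means had correlations of 0.24, -0.09, 0.02, -0.03 and 0.08. Differently numbered goslings were not compared in this way, so these values cannot settle whether the numbers pair goslings. With the replicate block 12 enzyme rows (11 falls), 671 rows in all and 8 list genes passed, the enzymes' median was -0.73, and SULT2B1 was at -0.11. Depth is unknown, which limits what low rows can show.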

Other observations

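Some rows of the same enzyme classes carry descriptions or names outside the wording used to choose the 56, and were looked up after values had been seen. There were 23 such rows, 16 of them tested, 2 called and both lower, where 6.29% of all tested rows were called lower. After quantile normalization the call of LOC106029739 held (limma adjusted p = 0.0236) and the other did not (0.0916). Of all tested rows 2.0% were called lower then. LOC106029739, described as epoxide hydrolase 1-like and so kin to the microsomal hydrolase of reactive epoxides, fell from 12.7 ± 6.39 to 3.12 ± 1.35 FPKM (SD, n = 6 and 5). Its groups did not overlap, and the call held with any single gosling left out (log2 fold change -1.67, SE 0.31, limma adjusted p = 0.0103, between 0.0066 and 0.0306 with a gosling left out). The other was HADH;LOC106038668, a row that merges a fatty acid oxidation enzyme with the P450 2U1, at 29.2 ± 11.3 FPKM in control and 12.4 ± 6.49 in gout (limma adjusted p = 0.0476); its reads cannot be assigned to either gene, and the call was lost without any 1 of gout replicates 1, 2 and 3 or control replicates 1, 2, 3 and 5 (up to 0.108).

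Some sulfotransferase rows outside the 56 were abundant. LOC106044595, described as sulfotransferase 6B1-like, was at 91.2 ± 127 FPKM in control and 6.9 ± 6.62 in gout, the largest fold change of these rows, but with a spread of the controls above their mean and a limma adjusted p of 0.0996. LOC106044594, of the same description, was at 22.6 ± 13.6 and 17.7 ± 18 FPKM, and the merged row LOC106043981;SULT1B1, described as sulfotransferase 1 family member D1-like, at 44.4 ± 17.5 and 28.2 ± 13.4 FPKM. LOC106041532, described as dimethylaniline monooxygenase 4-like, a flavin monooxygenase, was at 30 ± 17.4 and 14 ± 9.61 FPKM (limma adjusted p = 0.0998). The cholesterol 24-hydroxylase row LOC106036083 was at 8.39 ± 2.21 and 6.48 ± 3.68 FPKM and the leukotriene B4 hydroxylase row LOC106049439 at 13.1 ± 3.37 and 9.32 ± 3.36 FPKM, neither called.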
